A study of Mus musculus with 2 samples.

Results

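The TGF-beta axis was followed through 7 genes, of 19465 in the count matrices: the ligands Tgfb1, Tgfb2 and Tgfb3, the receptors Tgfbr1 and Tgfbr2, and the target genes Tgfbi and Postn. The genes were taken by name and role, with earlier results of these data known, and all 7 had counts in both sections. Expression had been mapped with Visium CytAssist, which reads gene-specific probe pairs on fixed tissue through a grid of barcoded spots, each covering several cells. The KO section came from a tumour grown in a Foxp3-Cre × CK2b-fl/fl mouse, in which the Foxp3 promoter drives Cre so that Csnk2b, encoding the regulatory subunit of protein kinase CK2, is removed in regulatory T cells. The WT section came from a tumour in a mouse with the same floxed allele and no Cre (Csnk2bfl/fl). Both tumours were untreated B16.F10 melanomas, a transplanted pigmented mouse line that keeps its own Csnk2b, in mice of 8 to 16 weeks, and were taken on day 15 and cut at 10 µm. With 1 section per genotype, a difference between genotypes is a difference between 2 sections, and no test between genotypes was run. The 95% intervals given below cover counting error only.

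TGF-beta is secreted in a latent complex that binds to matrix or to cell surfaces, and it is released by integrins, proteases or thrombospondin. The free ligand binds the type II receptor, encoded by Tgfbr2, which activates the type I receptor, encoded by Tgfbr1, and this in turn phosphorylates SMAD proteins that enter the nucleus and bind DNA at short CAGAC elements. In tumours the pathway is best known for restraining T cells and for driving fibroblasts to deposit matrix, of which the secreted proteins encoded by Tgfbi and Postn (periostin) are part.

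The promoter windows of the targets are shown because these 2 genes had the largest differences between the sections among the 7. Each window runs from 250 bases before to 50 after an annotated start in RefSeq (GRCm38.p6), written in the direction of transcription, and capitals mark CAGAC or its reverse complement GTCTG. Postn has windows at 2 starts, of which the first lies at chr3:54359017-54359316 and the second at chr3:54360857-54361156, both on the plus strand. The Tgfbi window lies at chr13:56609336-56609635 on the plus strand.
Postn, first start: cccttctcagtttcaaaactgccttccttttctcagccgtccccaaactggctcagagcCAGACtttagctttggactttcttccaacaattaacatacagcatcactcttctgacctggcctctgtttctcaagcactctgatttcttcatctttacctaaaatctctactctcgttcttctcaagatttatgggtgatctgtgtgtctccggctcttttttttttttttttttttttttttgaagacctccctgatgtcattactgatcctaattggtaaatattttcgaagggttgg
Postn, second start: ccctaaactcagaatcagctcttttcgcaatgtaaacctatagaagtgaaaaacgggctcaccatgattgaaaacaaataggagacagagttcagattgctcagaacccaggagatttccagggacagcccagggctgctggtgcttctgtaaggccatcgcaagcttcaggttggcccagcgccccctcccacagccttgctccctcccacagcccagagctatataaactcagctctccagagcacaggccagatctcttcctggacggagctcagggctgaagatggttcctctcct
Tgfbi: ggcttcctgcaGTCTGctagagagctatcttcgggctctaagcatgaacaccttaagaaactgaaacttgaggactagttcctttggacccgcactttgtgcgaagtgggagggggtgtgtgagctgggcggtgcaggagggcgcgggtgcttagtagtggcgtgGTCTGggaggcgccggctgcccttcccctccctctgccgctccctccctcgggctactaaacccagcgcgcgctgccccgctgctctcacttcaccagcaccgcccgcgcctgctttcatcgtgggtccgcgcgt
The first Postn window holds 1 CAGAC element, 191 to 187 bases before the start, and the second holds none but has TATAAA at 26 to 21 bases before the start. The Tgfbi window holds 2 elements as GTCTG. Such an element is found on 1 strand or the other in 49.6% of all 32851 windows in the table, and TATAAA in 13.6%. None of the 8 windows found for 6 of the members (all but Tgfb3) holds the AP-1 motif TGANTCA, which 7.81% of all windows hold. The window of Tgfb1 and that of Tgfbr1 at its gene start hold no CAGAC, while those of Tgfb2 and Tgfbr2 hold 2 and 1. The matches describe the letters of these windows and were not set against binding data.

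The KO section had 2746 spots under tissue with 94422680 UMIs (unique molecular identifiers, 1 per captured probe product) and a median of 36769 UMIs per spot. The WT section had 3066 spots, 88735936 UMIs and a median of 26818.5. The libraries share 2138 spot barcodes, which name grid positions and not cells. Melanocytic marker genes summed to 49666 CPM (the usual scaling of UMIs to a section's total) in KO and 43232 CPM in WT. The targeted gene Csnk2b had a KO over WT ratio of 0.998 (0.984 to 1.01), and tumour and other host cells carry it intact. Foxp3 had 51 UMIs in KO and 32 in WT, near the probe background, for which 15 genes of other tissues gave medians of 49 and 19 UMIs. Each of the 7 members had at least 1228 UMIs per section. The 4 Y-linked genes examined had 1477 UMIs in KO and 0 in WT. The labels do not give the sex of the hosts, so host sex and genotype cannot be told apart.

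Of the ligands, Tgfb1 was lower in the KO section, while Tgfb2 and Tgfb3 stood close to their WT levels. Of the receptors, Tgfbr2 was lower and Tgfbr1 higher in the KO section, and both targets were lower. Tgfb1 (ENSMUSG00000002603, chromosome 7, 25687002 to 25705077 in GRCm38), the main ligand of immune cells, stood at 70.9 CPM in the KO section and 137 CPM in the WT section. Its KO over WT ratio was 0.518 (0.503 to 0.534). Over the 4 quadrants of a section, Tgfb1 ranged over 54.9 to 108 CPM in KO and 81.1 to 260 CPM in WT, and these ranges overlapped. Tgfb2 (chromosome 1, 186622787 to 186709697) had 13.0 CPM in KO and 14.0 CPM in WT, a ratio of 0.932 whose interval (0.861 to 1.01) includes 1. Tgfb3 (chromosome 12, 86056743 to 86079041) had 40.7 CPM in KO and 43.9 CPM in WT, a ratio of 0.928 (0.887 to 0.970), and KO quadrants of 39.1 to 42.7 CPM lay inside the WT range of 33.1 to 68.7 CPM.

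Tgfbr1 (chromosome 4, 47353222 to 47414926) was the member with a higher level in the KO section, at 54.3 CPM, against 40.2 CPM in the WT section. Its ratio was 1.35 (1.29 to 1.41), and no KO quadrant (46.3 to 56.8 CPM) overlapped a WT quadrant (33.9 to 42.6 CPM). Tgfbr2 (chromosome 9, 116087695 to 116175363) stood at 86.3 CPM in KO and 171 CPM in WT, a ratio of 0.505 (0.491 to 0.518). One WT quadrant held 426 CPM of Tgfbr2, while the other WT quadrants, at 72.7 to 161 CPM, overlapped the 4 KO quadrants, at 68.6 to 126 CPM. Tgfbi (chromosome 13, 56609586 to 56639359) had 16.2 CPM in KO and 61.9 CPM in WT and was 3.83-fold lower in the KO section, a ratio of 0.261 (0.246 to 0.276). Postn (chromosome 3, 54359267 to 54391041) had 19.8 CPM in KO and 132 CPM in WT and was 6.63-fold lower, a ratio of 0.151 (0.144 to 0.158). The WT quadrants of Postn ran from 14.6 to 396 CPM, and the lowest of them lay inside the KO range of 12.3 to 39.0 CPM. The quadrants of Tgfbi also overlapped, with 9.23 to 27.0 CPM in KO and 15.5 to 187 CPM in WT.

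**Figure D1:**
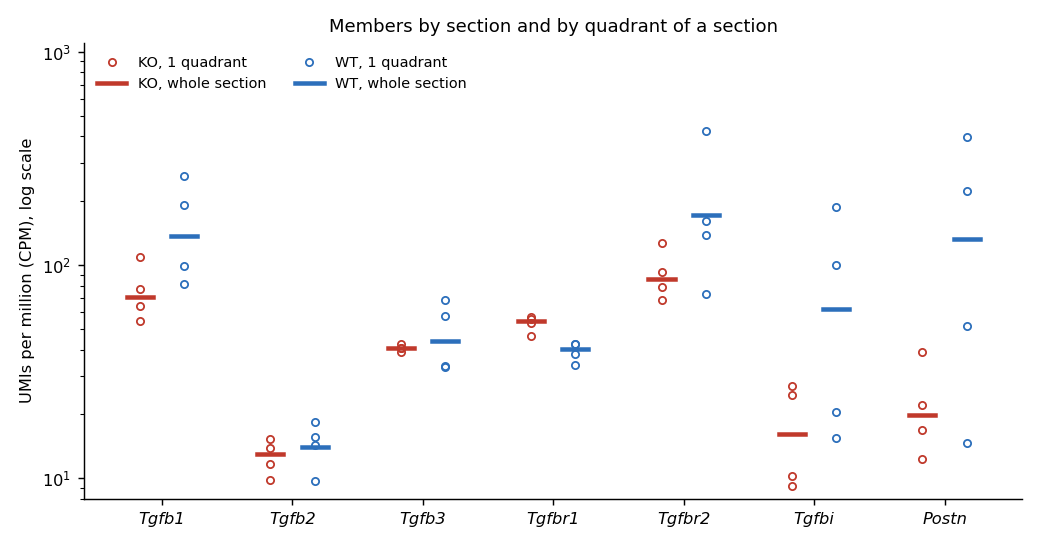
CPM of each member (log axis) in the KO section (red) and the WT section (blue), with a bar for the whole section and an open circle for each of its 4 quadrants. The Tgfbr1 quadrants do not overlap, whereas for the other 6 genes the lowest WT quadrant lies at or below the highest KO quadrant.

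Over whole sections, 2 of the 7 members (Tgfbi and Postn) were 2-fold or more lower in the KO section, a size reached by 4.85% of the 16961 genes with at least 50 UMIs over both sections. None of the 7 was at least 2-fold higher, where 14.7% of genes were. The median log2 ratio was -0.95 over the members and 0.15 over those genes. Tgfb1 and Tgfbr2 lay just short of 2-fold. With TMM scaling, which shifts every log2 ratio by -0.22, their ratios were 0.446 and 0.434. Among interior spots, more than 2 grid steps from a tissue edge, they were 0.457 and 0.495. In both settings 4 of the 7 counted as 2-fold lower. The 4.85% was counted in neither setting, and no such share of genes is given for them.

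Spots were divided by the share of their UMIs from marker genes that include no member. Stroma spots had at least 2.02% of UMIs from 12 fibroblast and matrix genes and less than 4.61% from 12 melanocytic genes. Melanoma-dense spots were at or above that melanocytic share and below that fibroblast share, and all others are called remaining. The KO section had 210 stroma, 929 remaining and 1607 melanoma-dense spots, and the WT section 945, 830 and 1291. Stroma spots thus held 1.82% of the KO UMIs and 14.7% of the WT UMIs. They were shallow, with medians of 6818 UMIs in KO and 11994 in WT, and 78.1% of those in KO and 54.7% in WT lay at the tissue rim. In spots, fewer cells of a type and less RNA per cell cannot be told apart.

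Tgfb1, Tgfbr2 and both targets were higher in stroma than in melanoma-dense spots of both sections. Tgfb2 and Tgfb3 were higher in stroma of the WT section and not of the KO section, and Tgfbr1 was lower in stroma of both. Tgfb1 had 298, 118 and 49.5 CPM in stroma, remaining and melanoma-dense spots of the KO section, a stroma over melanoma-dense ratio of 6.03 (5.48 to 6.62). In the WT section Tgfb1 had 339, 149.7 and 78.9 CPM in that order, a ratio of 4.30 (4.12 to 4.49). Tgfbr2 had similar levels in remaining and melanoma-dense spots. In KO it had 618, 81.3 and 74.8 CPM, with an 8.27-fold step into stroma, and 716, 80.1 and 75.1 CPM in the WT section, a 9.54-fold step. Tgfbi had 166, 38.0 and 5.19 CPM in the KO section and 279, 52.5 and 11.02 CPM in the WT section, 31.9-fold and 25.3-fold higher in stroma than in melanoma-dense spots. Postn had 152, 49.4 and 6.73 CPM in the KO section and 695, 78.0 and 12.9 CPM in the WT section, ratios of 22.6 and 53.9.

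Tgfb3 had 25.6, 45.2 and 39.6 CPM in stroma, remaining and melanoma-dense spots of the KO section, with 44 UMIs in stroma. In the WT section it had 90.8, 39.3 and 34.1 CPM, 2.66-fold higher in stroma (2.47 to 2.87). Tgfb2 had 9.89, 11.6 and 13.5 CPM in the KO section, with 17 UMIs in stroma, and 29.0, 10.3 and 11.9 CPM in the WT section, 2.45-fold higher in stroma (2.15 to 2.79). Tgfbr1 had 26.8, 51.1 and 56.1 CPM in the KO section, a ratio of 0.477 (0.349 to 0.638), and 29.9, 39.6 and 43.2 CPM in the WT section, a ratio of 0.692 (0.619 to 0.770). In the KO section 4 of the 7 members were at least 2-fold higher in stroma, where 20.7% of genes were, and 1 (Tgfbr1) was at least 2-fold lower, where 19.3% were. In the WT section 6 of the 7 were higher, against 21.9% of genes, and none lower, against 15.8%. Among interior spots, which leave 46 KO and 428 WT stroma spots, the counts of at least 2-fold were again 4 and 6, with no share of all genes given. There Tgfb2 and Tgfb3 had stroma over melanoma-dense ratios of 1.20 (0.518 to 2.38) and 1.16 (0.733 to 1.74) in KO, above 1 with intervals that include it.

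**Figure D2:**
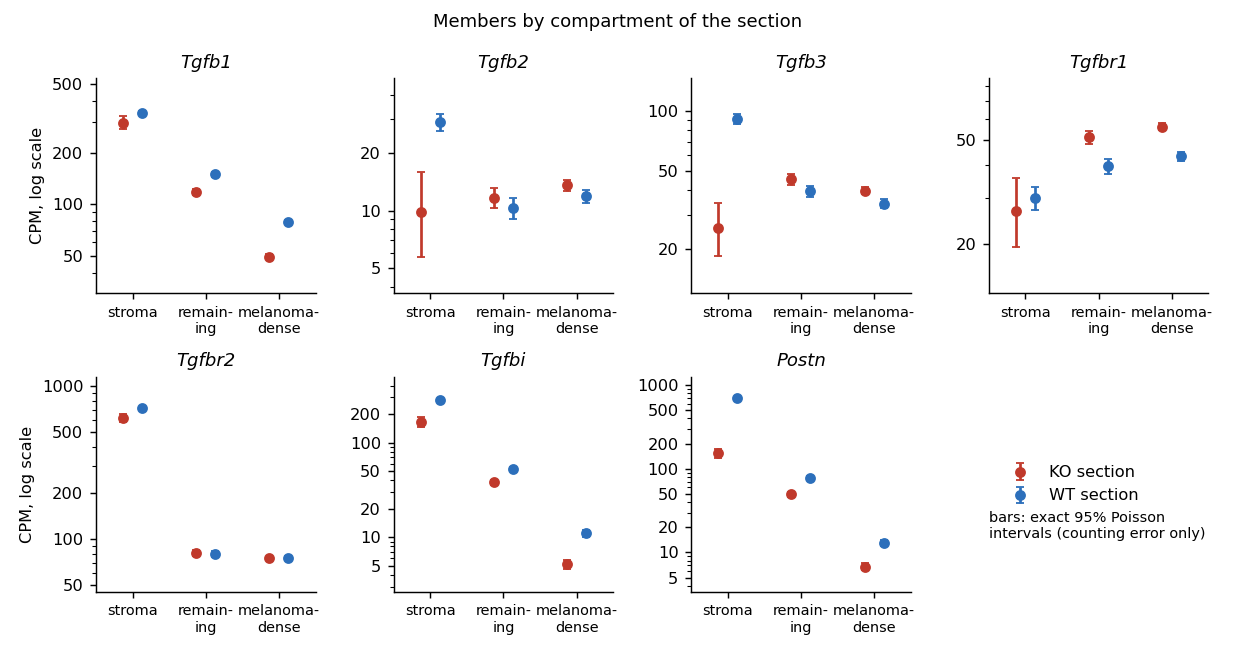
CPM of each member (log axes) in stroma, remaining and melanoma-dense spots of the KO section (red, left of each pair) and the WT section (blue), with exact 95% Poisson intervals. Tgfbr2 stands near 75 to 81 CPM in both sections outside stroma and above 600 CPM in both within it, while Tgfb2, Tgfb3 and Postn separate the sections most in stroma.

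Between the melanoma-dense spots of the sections, the KO over WT ratio was below 1 for Tgfb1 and both targets. It was above 1 for Tgfb2, Tgfb3 and Tgfbr1 and near 1 for Tgfbr2. The KO over WT ratio there was 0.628 (0.600 to 0.657) for Tgfb1, 0.471 (0.412 to 0.539) for Tgfbi and 0.522 (0.463 to 0.589) for Postn. It was 1.14 (1.03 to 1.27) for Tgfb2, 1.16 (1.09 to 1.23) for Tgfb3 and 1.30 (1.23 to 1.37) for Tgfbr1. TMM scaling brought Tgfb2 and Tgfb3 to 0.982 and 0.999. Tgfbr2 had a ratio of 0.997 (0.956 to 1.04). In these spots 1 of the 7 (Tgfbi) was at least 2-fold lower, against 1.19% of genes, and none higher, against 9.63%, with a median log2 ratio of -0.00 over the members and 0.10 over all genes tested there. Beside the lower Tgfb1 and targets, the macrophage list summed to 227 CPM in KO and 363 CPM in WT melanoma-dense spots, with 0 of its 10 genes higher in KO, and the collagen list to 255 and 698 CPM, with 0 of 9 higher. The T cell list had 29.6 CPM in KO and 10.9 CPM in WT, with 8 of 8 genes higher in KO, and the erythroid list 1242 and 161 CPM, with 4 of 4 higher. The part of these cells in the ratios was not tested.

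In stroma spots all 7 members had ratios below 1, and 3 (Tgfb2, Tgfb3 and Postn) were 2-fold or more lower in the KO section, against 6.26% of genes, and none higher, against 5.07%. The median log2 ratio was -0.75 over the members and 0.00 over all genes tested there. Postn had the lowest ratio, 0.219 (0.193 to 0.248), or 4.56-fold lower in KO stroma. Tgfb3 had a ratio of 0.282 (0.204 to 0.381) and Tgfb2 0.341 (0.196 to 0.553), and among interior stroma spots these 2 were 0.518 and 0.591, short of 2-fold. Tgfbi had a ratio of 0.595 (0.526 to 0.672), with 0.366 among interior spots. Tgfb1 had a ratio of 0.880 (0.802 to 0.965) and Tgfbr2 0.863 (0.809 to 0.920). The Tgfbr2 value depended on where stroma was set: it was 0.534 among interior stroma spots, 0.264 when stroma was the same fraction of each section's own spots and 1.11 with a fibroblast share at the 90th percentile, which leaves 9 KO spots. Tgfbr1 had a ratio of 0.896 with an interval that includes 1 (0.645 to 1.22), and 1.27 among interior stroma spots.

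The stroma spots of the sections also differed in other markers. The macrophage list summed to 12335 CPM in KO and 4305 CPM in WT stroma, 2.87-fold higher in KO, with 9 of 10 genes higher. The T cell list had 374 CPM in KO and 87.9 CPM in WT, with 8 of 8 genes higher. The collagen list, 3 of whose genes also defined stroma, had 31674 CPM in KO and 77359 CPM in WT, with 0 of 9 genes higher in KO, and the mural list of pericyte and smooth muscle genes 64.6 and 117 CPM, with 0 of 6 higher. The platelet list had 862 CPM in KO and 2335 CPM in WT, with 0 of 5 genes higher in KO, and the endothelial list 259 and 523 CPM, with 1 of 8 higher. Haemoglobin and other erythroid genes had 10112 CPM in KO and 938 CPM in WT stroma, and skeletal muscle genes 563 and 89.3 CPM. The part of these tissues in the stroma ratios was not tested.

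The sections differ in how much stroma they hold as well as in its content. When the KO compartments were weighted to the share of UMIs that each compartment has in the WT section, a setting added after the data were seen, the ratio of Tgfbr2 was 0.917, against 0.505 over whole sections, and that of Tgfb1 was 0.769. The weighted ratio was 0.612 for Tgfbi, 0.304 for Postn, 1.25 for Tgfbr1 and 0.89 for Tgfb2 and for Tgfb3. Postn alone then counted as at least 2-fold lower, and no share of all genes is given at this weighting. Spots were also placed in 5 bins of fibroblast share with the same limits in both sections. The upper bins still differed in that share, with medians of 3.24% of UMIs in KO and 6.21% in WT in the highest bin and 0.471% and 0.677% in the bin below, and the highest bin holds 210 KO spots, the number of its stroma spots. Postn was higher in KO in the lower bins, with ratios of 1.99, 2.30 and 1.28 from the lowest bin up, and lower in the upper bins, at 0.551 and 0.220. The lowest bin rests on 82 UMIs of Postn in KO and 19 in WT, beside medians of 15 and 3 UMIs for the background genes. Tgfb1 was lower in KO in all 5 bins, from 0.588 in the lowest to 0.882 in the highest. Tgfbr2 had ratios of 0.986 to 1.08 in the lower 4 bins and 0.865 in the highest.

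Both targets followed collagen over spots. The Pearson correlation of log2 levels (counts per 10000 UMIs with 1 added) between Postn and the summed share of 9 collagen genes was 0.50 over 2746 spots of the KO section and 0.72 over 3066 spots of the WT section. For Tgfbi it was 0.51 in KO and 0.65 in WT. These are descriptions over spots that share a library and its depth: the collagen share itself correlated with the spot's UMIs at -0.44 in KO and -0.48 in WT, and Postn at -0.11 and -0.06. Within stroma spots Postn and collagen correlated at 0.05 in KO and 0.46 in WT, and Tgfbi and collagen at 0.01 and 0.29. Postn and Tgfbi correlated with each other at 0.29 over KO spots and 0.61 over WT spots.

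Ranked into 10 bins by collagen share within each section, Postn had 2.31 CPM in the lowest bin and 148 CPM in the highest bin of the KO section, and 0.744 and 822 CPM in those of the WT section. The highest bins held mean collagen shares of 2.91% of UMIs in KO and 12.2% in WT. Tgfbi had 2.43 and 153 CPM in the lowest and highest KO bins, and 3.97 and 308 CPM in the WT bins. Tgfbr2 stayed between 62.9 and 104 CPM over the lower 9 KO bins and had 509.8 CPM in the highest. In the WT section Tgfbr2 was at 68.1 to 81.5 CPM in the lower 6 bins and 1078 CPM in the highest. The ligands took another course in the WT section, with their highest values in the ninth bin. Tgfb1 had 404 CPM there and 283 CPM in the tenth bin, Tgfb3 124 and 58.9 CPM, and Tgfb2 36.8 and 30.8 CPM. In the KO section Tgfb1 was highest in the tenth bin at 282 CPM, whereas Tgfb3 had 48.7 CPM in the eighth bin and 27.3 CPM in the tenth.

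**Figure D3:**
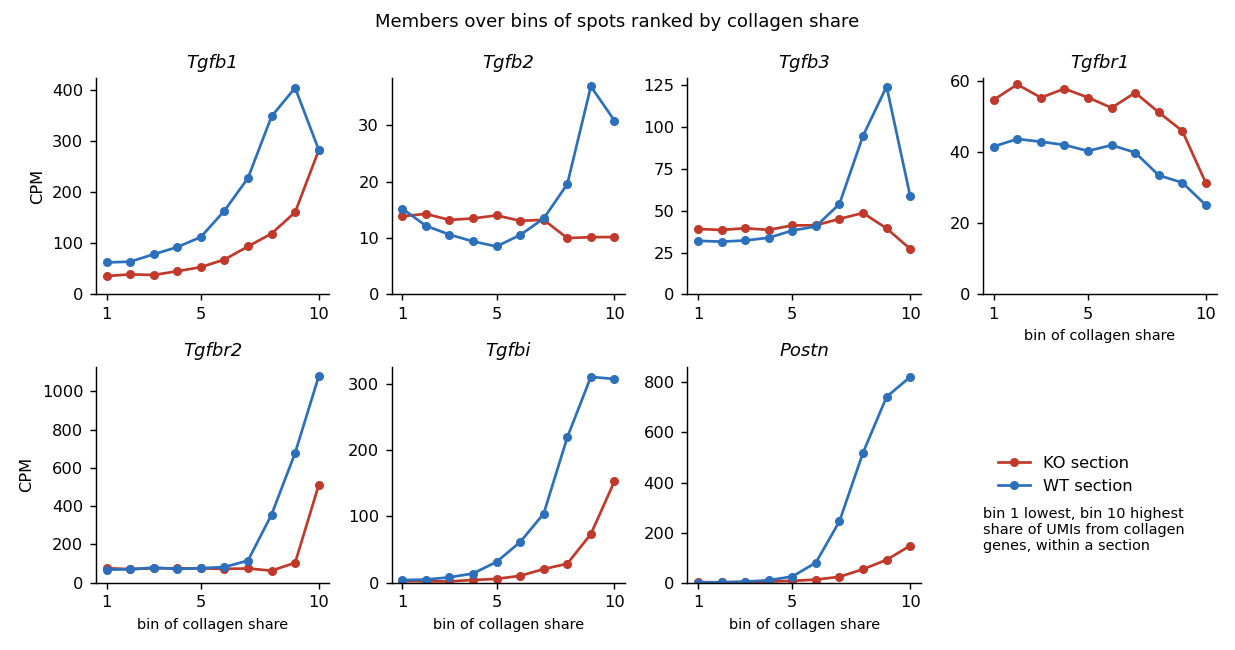
CPM of each member (axes from 0) over 10 bins of spots ranked by the collagen share of their UMIs within the KO section (red) or the WT section (blue). Postn and Tgfbi are highest in the top 2 bins of both sections, Tgfbr2 is highest and Tgfbr1 lowest in the tenth bin of both, and the 3 ligands of the WT section peak in the ninth bin.

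Hypoxia genes correlated with the targets less closely over spots than collagen did. Over all spots the correlation with the summed share of 13 genes induced by low oxygen was -0.32 in KO and -0.08 in WT for Tgfbi, and -0.13 in KO and -0.04 in WT for Postn. Among melanoma-dense spots, where the hypoxia list summed to 3561 CPM in KO and 2084 CPM in WT with all 13 genes higher in KO, the end bins differed between the sections. From the lowest to the highest of 10 hypoxia bins there, Tgfbi had 10.9 and 2.15 CPM in the KO section and 7.87 and 9.58 CPM in the WT section. Postn had 13.2 and 2.59 CPM in the KO bins and 8.65 and 16.3 CPM in the WT bins. The highest KO bin rests on 10 UMIs of Tgfbi and 12 of Postn. Tgfb1 had 70.0 CPM in the lowest and 40.5 CPM in the highest KO bin. In WT it had 64.0 and 65.3 CPM in these end bins and 93.3 CPM in the fifth bin. Tgfbr1 had similar levels in the lowest and highest KO bins, 57.7 and 58.6 CPM, and 47.7 and 41.4 CPM in those of WT.

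Tgfbi, Tgfbr2 and Tgfb1 followed macrophage genes about as closely as collagen, and fibroblast genes other than collagens to a like degree. The correlation with the summed share of 9 such fibroblast genes was 0.48 in KO and 0.63 in WT for Tgfbi. It was 0.47 and 0.66 for Tgfbr2, and 0.52 and 0.49 for Tgfb1. With the summed share of 10 macrophage genes, Tgfbi correlated at 0.59 in KO and 0.61 in WT, Tgfbr2 at 0.53 and 0.60, and Tgfb1 at 0.55 and 0.47. Postn correlated with the macrophage share at 0.40 in KO and 0.58 in WT over all spots, and at -0.25 in KO and 0.12 in WT within stroma. In spots outside stroma with at least 5000 UMIs, those at or above the 90th percentile of the macrophage share over both sections were compared with the rest, a split added after the data were seen. Tgfbi had 90.9 CPM in 246 macrophage-rich and 6.84 CPM in 1997 other spots of the KO section, and 93.5 CPM in 173 and 18.5 CPM in 1766 spots of the WT section. Macrophage-rich spots thus held nearly equal Tgfbi in KO and WT. Tgfb1 had 182 and 56.5 CPM in these spots of the KO section and 215 and 91.9 CPM in those of the WT section, and Postn 75.8 and 12.5 CPM in KO and 169 and 23.3 CPM in WT. Tgfbr2 had 120 CPM in macrophage-rich and 72.6 CPM in other spots of KO, and 113 and 73.3 CPM in those of WT. Tgfb2 and Tgfbr1 were near even, with macrophage-rich over other ratios of 0.937 to 1.07. Spots rich in T cell genes gave Tgfb1 ratios over other spots of 2.15 in KO and 1.59 in WT, endothelial-rich spots 2.36 and 1.92, and mural-rich spots 1.76 and 1.59. For Tgfbi the ratios were 7.31 and 2.98 in T cell-rich, 5.60 and 2.53 in endothelial-rich, and 2.98 and 1.44 in mural-rich spots. The T cell-rich sets were unequal, with 356 KO and 63 WT spots. Endothelial-rich sets held 194 and 225 spots, and mural-rich sets 192 and 227. Macrophage-rich spots gave Tgfbi ratios of 13.3 and 5.05.

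Across 3964 genes with at least 5000 UMIs in each section, the 3 most like each member were taken by the mean over both sections of the correlation over spots. For Postn they were the fibrillar collagens Col1a1, Col1a2 and Col3a1, with mean correlations of 0.62, 0.62 and 0.60. For Tgfbi they were Fcer1g, an Fc receptor chain of myeloid cells, and the complement genes C1qa and C1qb, at 0.60 each. For Tgfbr2 they were Wfdc17, the coagulation factor gene F13a1 and C1qb, at 0.67, 0.65 and 0.64. Tgfb1 was most like Tmsb4x, Laptm5, a lysosomal protein of blood cells, and Fcer1g, at 0.53, 0.51 and 0.51. Tgfbr1 was most like the pigment genes Slc24a5 and Tyr, and Nucks1, at 0.31, 0.30 and 0.30. Tgfbr1 also correlated with a spot's depth, at 0.41 in KO and 0.28 in WT. For Tgfb3 (Mcam, Tpm1 and Acot7) the values were 0.20 to 0.22 and for Tgfb2 (Adam12, Ppic and Mmp14) 0.13 to 0.15, both weak. Tgfb2 was the sparsest member, with 1228 UMIs in KO and 1238 in WT, while Tgfb3 had 3846 and 3895. Within WT stroma Tgfb3 correlated at 0.38 with the T cell share, 0.33 with the endothelial share and 0.33 with the mural share. Within KO stroma these correlations were 0.18, 0.08 and 0.17.

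In the KO section Tgfb1, Tgfbr2, Tgfbi and Postn had higher levels at the tissue rim than inside, although 3 of the 4 had most of their UMIs inside. Postn had 38.4 CPM at the rim and 14.3 CPM in interior spots of the KO section, with 831 and 1043 UMIs, and 165 and 111 CPM in those of the WT section. Tgfbi had 42.2 and 8.40 CPM in KO, with 915 and 611 UMIs, and 78.1 and 52.2 CPM in WT. Moran's I in the authors' deposited table, a score of how alike neighbouring spots are, was 0.314 in KO and 0.693 in WT for Postn. The same deposited table gave 0.417 in KO and 0.553 in WT for Tgfbi, 0.384 and 0.596 for Tgfbr2, 0.298 and 0.339 for Tgfb1, and 0.238 and 0.148 for Tgfbr1. After each spot was thinned to 5000 UMIs, with 356 KO and 395 WT spots below that depth left out, 10.5% of KO and 32.9% of WT spots had a Postn UMI. For Tgfbi the shares were 10.1% in KO and 27.0% in WT, for Tgfb1 31.9% and 48.1%, for Tgfbr2 35.4% and 44.8%, and for Tgfbr1 23.8% and 16.4%. Genes of other tissues gave at most 1.76% in KO and 1.87% in WT.

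**Figure D4:**
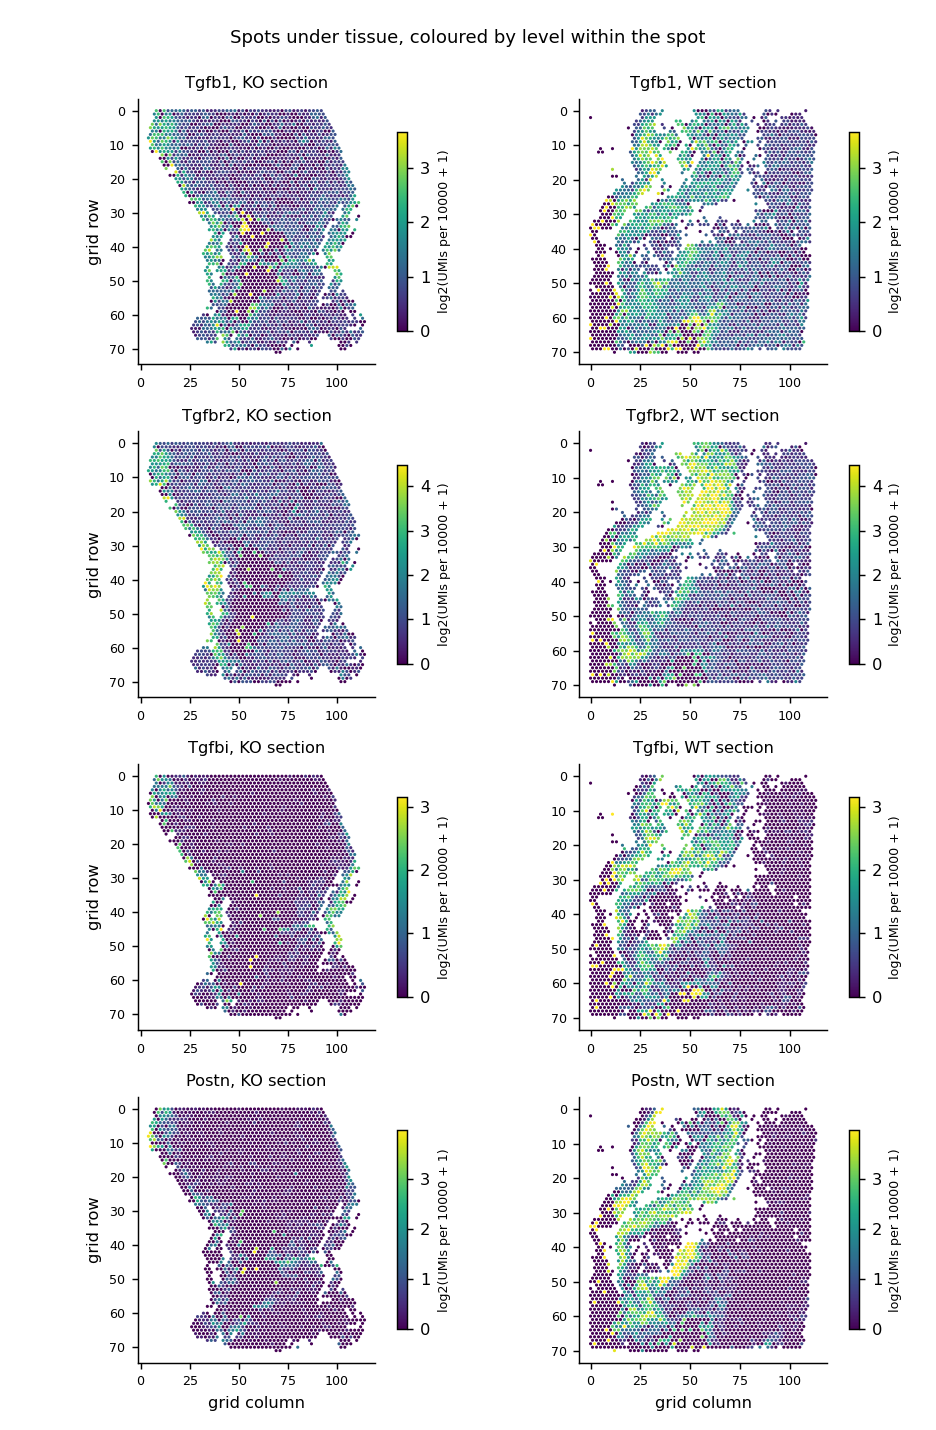
Spots under tissue at their grid row and column, coloured by log2(UMIs per 10000 + 1) of Tgfb1, Tgfbr2, Tgfbi and Postn (rows) in the KO section (left) and the WT section (right), on 1 scale per gene that ends at the 99th percentile over both sections. Postn and Tgfbi are bright over broad areas of the upper and left WT section. In the KO section Tgfbi is brightest near the side margins, and Postn is dim, with some spots in the interior. Scattered bright Tgfb1 spots are shallow: the 15 KO and 44 WT spots at the top of its scale have medians of 778 and 795 UMIs, and 8 and 23 of them hold 1 UMI of the gene. For Tgfbi, 4 of 8 KO and 25 of 51 WT spots at the top hold 1 UMI, with medians of 2784 and 1229 UMIs. For Postn, 2 of 3 KO and 14 of 56 WT spots do, with medians of 539 and 16348.5 UMIs.

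The wider pathway was read from 49 further genes in 6 lists, 48 of them with at least 50 UMIs over both sections. These lists were also chosen with earlier results of these data known. Of these 48, 21 were 2-fold or more lower in the KO section and 1 (Itgb6) higher, where 4.85% and 14.7% of all genes were, with a median log2 ratio of -0.59 beside 0.15 over all genes. The lower genes were mostly ligand-binding matrix proteins, further targets and genes of latency, whereas none of the SMADs was among them. With the KO compartments weighted to the WT mix, 11 of the 48 were at least 2-fold lower, with no share of all genes given. In melanoma-dense spots 4 of 47 were at least 2-fold lower and 1 higher, against 1.19% and 9.63% of all genes. In stroma spots 18 of 46 were lower and none higher, against 6.26% and 5.07%. In stroma 27 of 45 were 2-fold or more higher than in melanoma-dense spots of the KO section, against 20.7% of all genes, and 30 of 46 in the WT section, against 21.9%.

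Among co-receptors, the endothelial receptor genes Eng and Acvrl1 had KO over WT ratios of 0.821 and 0.922, and Tgfbr3, which encodes betaglycan, 0.350 (0.318 to 0.384). The direction did not hold in stroma: the Tgfbr3 ratio was 0.963 (0.722 to 1.29) in melanoma-dense spots and 1.43 (1.25 to 1.63) in stroma spots. Of 12 genes of latency and activation 6 were at least 2-fold lower, beside 4.85% of all genes. Thbs1, a thrombospondin that can free the ligand from latency, had 62.7 CPM in KO and 375 CPM in WT, a ratio of 0.167 (0.163 to 0.172), and in stroma spots 239.7 and 1871 CPM. Bmp1, a protease that acts on procollagen and on latent complexes, had a ratio of 0.324, and the integrin subunit gene Itgav 0.912. Lrrc32, which encodes GARP, the docking protein for latent TGF-beta on regulatory T cells and other cells, had 476 UMIs in KO and 1722 in WT, a ratio of 0.260 (0.234 to 0.288). It was chosen after its values were seen. Its ratio was 0.834 (0.675 to 1.03) in melanoma-dense spots and 0.486 (0.383 to 0.608) in stroma spots, and it stood 16.9-fold higher in stroma than in melanoma-dense spots of KO and 29.0-fold higher in WT. Itgb6, with 51 UMIs in KO and 22 in WT, lay below 2 times the probe background.

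The signal-transducing Smad2, Smad3 and Smad4 had ratios of 1.29, 0.965 and 0.908, none of them 2-fold. Of 8 feedback inhibitors 1 (Pmepa1) was at least 2-fold lower, beside 4.85% of all genes. Pmepa1, which is induced by TGF-beta and restrains SMAD activation, had 9.88 CPM in KO and 43.1 CPM in WT. Its ratio was 0.229 (0.213 to 0.246). The corepressor genes Ski and Skil had ratios of 1.18 and 0.663, and the ubiquitin ligase gene Smurf2 1.25. Of 5 genes whose proteins bind TGF-beta or related ligands 4 were at least 2-fold lower, beside 4.85% of all genes. Among them, biglycan, Bgn, had 69.0 CPM in KO and 391.7 CPM in WT, a ratio of 0.176. Fmod (fibromodulin) had the lowest ratio, 0.0832, with 73 UMIs in KO, below 2 times the background. Decorin, Dcn, which belongs to the list that defined stroma, had a ratio of 0.441 over whole sections and was 1.88-fold higher in KO stroma. Fstl3, a follistatin-like gene, stood at 0.998.

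Of 17 measured further target genes, 9 were 2-fold or more lower in the KO section, beside 4.85% of all genes. All 17 had ratios below 1, and no share of all genes below 1 is given. The median log2 ratio was -1.32 over the 17 and 0.15 over all genes. Fibronectin, Fn1, had 168 CPM in KO and 596 CPM in WT, a ratio of 0.282, while in stroma spots it stood at 3039 CPM in KO and 3297 CPM in WT, a ratio of 0.922. The cell cycle inhibitor gene Cdkn1a, Ccn1 and the corepressor gene Tgif1 had ratios of 0.942, 0.925 and 0.974. Cdkn2b, a cyclin-dependent kinase inhibitor gene, had the lowest, 0.0856, with 47 UMIs in KO, below 2 times the background. The next 2 genes were chosen after their values were seen. Acta2, the smooth muscle actin of myofibroblasts, had 17.1 CPM in KO and 116 CPM in WT, and its ratio in stroma spots was 0.0834 (0.0648 to 0.106). Ccn2, which encodes connective tissue growth factor, had a ratio of 0.294 over whole sections and 0.147 in stroma spots.

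**Figure D5:**
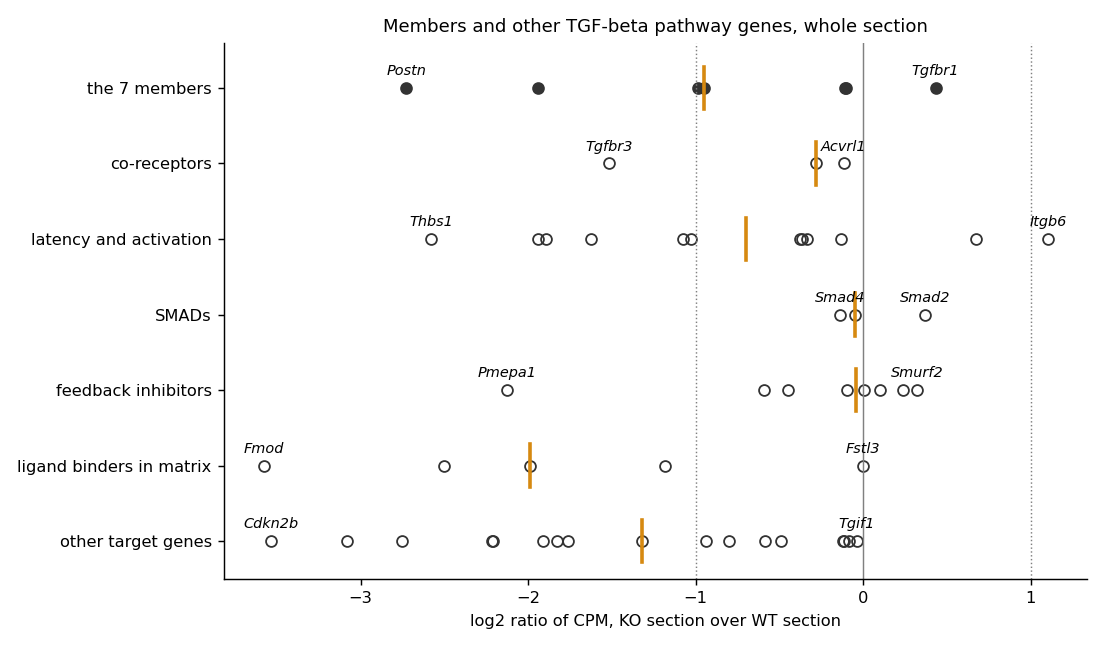
The log2 ratio of CPM, KO section over WT section, for the 7 members (filled) and 48 further TGF-beta pathway genes (open) by list, with an orange bar at each list's median and dotted lines at 2-fold. The members run from Postn at -2.73 to Tgfbr1 at 0.43, the SMADs lie near 0, and the ligand binders and further targets extend to the left.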

How the data were processed

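The authors deposited raw UMI counts of genes in spots for both sections, and the file headers name Space Ranger 2.1.0 as the software. The submitters' processing notes also give mm10 and featureCounts, without saying how either was used. Moran's I, a score per gene, was taken from the authors' deposited spatial table and not recomputed. Counts were summed over the spots of a section or compartment and scaled to CPM. Ratios carry exact conditional binomial (Clopper-Pearson) and levels exact Poisson 95% intervals, which cover counting error only (Python 3.11.15, scipy 1.17.1). With 1 section per genotype no p-value was computed, and spots were not used as replicates. Log2 ratios have 0.5 added to each count, and a gene was measured with at least 50 UMIs. The calculation of the ratios and intervals was checked on Poisson counts simulated from these counts, without variation between spots or sections. That check does not cover how well the intervals hold for these sections.

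Stroma and melanoma-dense spots were set at the 80th percentile of the fibroblast share and the median melanocytic share over both sections. Members and gene lists were chosen with earlier results of these data known. The text names all members and, from each pathway list, the 3 genes of highest UMI count plus the extremes of the ratio. Lrrc32, Acta2 and Ccn2 fall outside this rule and were added after their values were seen. Marker lists are reported by their sums. Alternatives were edgeR 4.0.16 TMM factors (R 4.3.3), other spot sets and other compartment limits. Weighting to the WT mix and the marker-rich spots were added after the data were seen. Gene positions and promoters come from RefSeq (GRCm38). Tgfb3 had no promoter window in that table.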

Additional observations from a re-analysis of the deposited data

How the results depend on the processing

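The median log2 ratio of the 7 members, -0.95 over whole sections, was -1.17 with TMM factors, -1.02 among interior spots, -0.82 with equal weight per spot and -0.17 at the WT mix of compartments. The count of members at least 2-fold lower was 2, with 4 under TMM factors, 4 among interior spots and 1 at the WT mix, and the count of 21 further pathway genes was 11 at the WT mix. Shares of all genes are not given for these alternatives. Totals without the 50 most abundant genes and background subtraction also gave 2 members, while spots of at least 5000 UMIs and equal weight per spot gave 3, with Tgfbr2 added. Tgfb2 over whole sections was 1.0002 among interior spots.

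In melanoma-dense spots the median of -0.00 was -0.22 with TMM factors, 0.032 among interior spots and 0.00026 with limits set within each section. There TMM factors turned Tgfb2 to 0.982 and Tgfb3 to 0.999, and Tgfbr2 turned to 1.02 among interior spots and 1.0002 with limits within each section. In stroma spots the median of -0.75 was -0.96 with TMM factors, -1.63 at the 90th percentile and -1.60 with limits within each section. Tgfbr1 turned to 1.27 among interior spots and 1.48 with limits within each section, and Tgfbr2 to 1.11 at the 90th percentile.

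The correlation of Tgfbi with collagen in KO was 0.32 in melanoma-dense spots, 0.013 in stroma and 0.68 with neighbouring spots summed, and in WT 0.29 in stroma, 0.79 in spots of at least 5000 UMIs and 0.80 with neighbours. With hypoxia in KO it was -0.16, -0.18 and -0.43 in melanoma-dense, stroma and neighbour-summed spots, and in WT 0.012 in melanoma-dense spots. Postn with collagen was 0.054 in KO stroma and 0.46 in WT stroma, and with hypoxia 0.040 in KO stroma, 0.027 in WT melanoma-dense spots and 0.022 in WT with neighbours. The cause of these changes was not tested. No paired analysis was possible because each genotype has 1 section. Depth limits KO stroma most, where Tgfb2 rests on 17 UMIs, Tgfb3 on 44 and Tgfbr1 on 46.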
